A study of Mus musculus with 9 samples.

Results

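The Slc25 genes encode the mitochondrial carriers, a family of related membrane proteins that move metabolites through the inner mitochondrial membrane. Members were chosen by symbol, as every gene named Slc25a followed by a number, and 46 of the 19329 gene symbols in the tables were members. They include the citrate carrier *Slc25a1* and the carnitine carrier *Slc25a20*. Of the 46 members, 41 passed the filter on low counts and were tested, among 12091 genes tested in all. Liver RNA came from C57BL/6J mice, an inbred strain, all fed chow until the age of 8 weeks. For the next 3 weeks 5 of them stayed on chow and 4 received a high-sucrose diet (HSD), and the livers were taken at 11 weeks, each from a separate mouse. The sources used here give neither the sex of the mice nor the sucrose content of the diet, and no genetic change or drug is named for either group. The question the comparison addresses is which carrier mRNAs differ in the liver between the diets.

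A carrier of this family binds its substrate on one face of the membrane and releases it on the other, often in exchange for a second metabolite. Because the inner membrane is closed to most charged molecules, these proteins connect the citric acid cycle, fatty acid oxidation and ATP synthesis inside the organelle with lipid synthesis, glucose production and redox balance in the cytosol. In hepatocytes, they also link the mitochondrial and cytosolic steps of the urea cycle.

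The libraries held 12769668 to 25913869 estimated counts on chow and 14040723 to 24825322 on HSD. The 8 hepatocyte markers summed to 75285 to 138996 CPM on chow and 103912 to 137918 CPM on HSD, where CPM is the count scaled to library size by TMM (trimmed mean of M values). Red blood cell markers summed to 182 to 459 CPM on chow and 115 to 158 CPM on HSD, and Kupffer cell markers to 190 to 416 and 116 to 236 CPM. The red blood cell sum includes *Alas2*, which alone had 137 to 171 CPM on chow and 58.2 to 77.4 CPM on HSD. The mean log2 CPM of the 5 tested red blood cell markers, each minus its mean over 9 livers, overlapped between the diets. That mean was -0.68 to 1.80 on chow and -0.47 to 0.28 on HSD. By edgeR 1 of 8 hepatocyte markers and 1 of 5 tested red blood cell markers passed, both lower on HSD (*Serpina1a* and *Alas2*). Of 10 Kupffer cell markers 0 passed by edgeR or DESeq2, with 6 at an unadjusted p under 0.05 (edgeR), against 23.7% of all genes tested. All 10 were on the lower side on HSD, with log2 fold changes (HSD over chow) of -0.87 to -0.30 and a median of -0.54. Of 8 endothelial markers 0 passed by edgeR or DESeq2 (1 at an unadjusted p under 0.05). Of 8 stellate cell markers 0 passed by edgeR, with 3 at an unadjusted p under 0.05 and 2 higher by DESeq2. Of 5 tested bile duct markers 0 passed by edgeR, with 2 at an unadjusted p under 0.05 and 1 higher by DESeq2. Of 2 tested lymphocyte markers 0 passed by edgeR or DESeq2, with 0 at an unadjusted p under 0.05. The 6 neutrophil markers summed to 0.467 to 3.62 CPM on chow and 0.0793 to 0.410 CPM on HSD. The 5 adipocyte markers summed to 0 to 0.312 CPM on chow and 0 to 0.273 CPM on HSD. Of these lists 0 markers passed the filter on low counts, so a diet difference was not tested. Within them, *Mpo* of neutrophils and *Lep* of adipocytes were at 0 in every liver. In pieces of tissue, fewer cells of a type and less RNA per cell cannot be told apart. Chow 1 stood apart with 10112 CPM of the acute phase gene *Saa2*, where the remaining chow livers had 4.45 to 39.5 CPM. The clock gene *Arntl* was at 4.40 CPM in chow 1 and 9.24 CPM in chow 3, at 1.35 to 1.63 CPM in chow 2, 4 and 5 and at 4.20 to 9.15 CPM on HSD. Library labels fall into a first series (4 chow and 2 HSD livers) and a second (1 chow and 2 HSD livers), and the sources used here do not say what the series mark.

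Promoter sequences from RefSeq (GRCm38.p6) were found for 35 members, with 45 promoters in all. The 250 bases before the start are printed below for 3 members. *Slc25a10* and *Slc25a47* are shown because they passed the test and were lower on HSD, and *Slc25a1* because 4 of 6 genes of citrate formation and use rose. Each is written 5′ to 3′ on the strand of the gene, and capitals mark matches on either strand. The motifs marked are the E-box, spelled CACGTG on both strands. Also marked is the CCAAT box, which reads ATTGG when it lies on the opposite strand. The last is the GC box GGGCGG, which reads CCGCCC when it lies on the opposite strand. The windows are chr11:120491587-120491836 (+) for *Slc25a10*, chr12:108850879-108851128 (+) for *Slc25a47* and chr16:17928220-17928469 (-) for *Slc25a1*.
Slc25a10: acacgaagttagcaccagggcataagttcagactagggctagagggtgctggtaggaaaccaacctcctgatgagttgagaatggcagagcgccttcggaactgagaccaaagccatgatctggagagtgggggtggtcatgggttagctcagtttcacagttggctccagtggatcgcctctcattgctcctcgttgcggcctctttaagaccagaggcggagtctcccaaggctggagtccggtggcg
Slc25a47: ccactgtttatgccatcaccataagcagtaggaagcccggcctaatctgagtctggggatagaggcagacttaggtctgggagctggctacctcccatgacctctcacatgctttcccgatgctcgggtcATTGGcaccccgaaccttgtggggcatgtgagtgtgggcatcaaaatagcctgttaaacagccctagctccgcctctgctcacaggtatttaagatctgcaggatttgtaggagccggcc
Slc25a1: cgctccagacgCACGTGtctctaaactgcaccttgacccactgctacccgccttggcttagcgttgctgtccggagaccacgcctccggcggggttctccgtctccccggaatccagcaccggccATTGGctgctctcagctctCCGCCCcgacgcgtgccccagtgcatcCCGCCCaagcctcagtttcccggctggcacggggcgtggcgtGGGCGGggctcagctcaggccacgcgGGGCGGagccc

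The *Slc25a1* stretch held 1 E-box, 1 CCAAT box and 4 GC boxes. The *Slc25a47* stretch held 1 CCAAT box, and the *Slc25a10* stretch held none of the motifs searched. The full window of *Slc25a10* reaches past the start and held 1 CCAAT box and 2 GC boxes across or after the end of the printed stretch. Over the whole RefSeq windows of 300 bases, GGGCGG was found on either strand in 84.4% of the members' promoters and in 35.7% of all 32851 promoters. CCAAT was in 48.9% of the members' promoters against 37.4% of all. The E-box was in 17.8% against 7.15%. The cyclic AMP response element, spelled TGACGTCA, was in 4.44% against 1.79%. The TATA box, searched for as TATAAA, was in 4.44% against 13.6%. These shares count windows, and windows of the same gene can overlap, so a site can be counted more than once. By gene, the GC box was found for 30 of the 35 members. The bases just after the start were found in an annotated transcript of the gene for 35 of the 45 windows. A window without a match says only that these letters are not in it. The median GC content was 59.0% for the members and 52.7% for all promoters. The members' promoters were thus richer in GC, as GC boxes themselves are. The E-box was in promoters of 7 members, *Slc25a1*, *Slc25a13*, *Slc25a14*, *Slc25a15*, *Slc25a31*, *Slc25a33* and *Slc25a36*. The members called lower on HSD were not among them.

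Members lie on 19 chromosomes, and GENCODE M21 (GRCm38) annotates all 46. *Slc25a10* spans chr11:120491840-120499187 on the plus strand and *Slc25a47* spans chr12:108836046-108856815 on the plus strand. *Slc25a1* is at chr16:17925223-17928219 on the minus strand and *Slc25a20* at chr9:108662088-108684641 on the plus strand. In 3 stretches of the genome, members are neighbours with no coding gene between them. *Slc25a29* and *Slc25a47* start 162 bases apart and are read away from each other, with mean levels of 1.90 and 504 TPM. TPM is a share of transcripts corrected for their length, so it is the scale on which genes are compared with each other here. *Slc25a41* and *Slc25a23* lie 2056 bases apart at 0 and 129 TPM, and *Slc25a43* and *Slc25a5* lie 18448 bases apart at 0.101 and 390 TPM. In each case a scarce carrier lay beside an abundant one. RefSeq places the start of *Slc25a47* inside the GENCODE gene, at the window printed above, so the distance to *Slc25a29* depends on the annotation.

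Mean levels of the carriers over 9 livers ran from 0 to 504 TPM. Of the 46 members, 10 had a mean below 1 TPM, 14 were from 1 to 10 TPM, 14 from 10 to 100 TPM and 8 above 100 TPM. The family took 0.304% ± 0.0349 of the listed TPM on chow (SD, n = 5) and 0.298% ± 0.00698 on HSD (SD, n = 4), a difference smaller than the spread between mice. The 5 most abundant members, *Slc25a47*, *Slc25a39*, *Slc25a5*, *Slc25a1* and *Slc25a3*, made up 62.0% ± 1.05 of the family's TPM on chow and 62.2% ± 0.934 on HSD. The lowest family share was in chow 1, at 0.251%, and the highest in chow 2, at 0.336%.

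*Slc25a47*, a carrier known for its restriction to liver, had the highest mean level, with 555 ± 95.5 TPM on chow and 441 ± 67.5 TPM on HSD. *Slc25a39*, which takes glutathione into mitochondria, was at 413 ± 26.5 and 366 ± 9.29 TPM, and the ADP/ATP carrier *Slc25a5* at 360 ± 68.2 and 427 ± 17.5 TPM. *Slc25a1* followed at 210 ± 31.1 and 269 ± 13.0 TPM and the phosphate carrier *Slc25a3* at 220 ± 27.1 and 243 ± 13.5 TPM. The order of the last pair was not settled, since on chow *Slc25a1* ranged from 176 to 242 TPM and *Slc25a3* from 179 to 251 TPM. Likewise *Slc25a39* (372 to 435 TPM) and *Slc25a5* (256 to 412 TPM) overlapped on chow, whereas on HSD *Slc25a5* (409 to 450 TPM) lay above *Slc25a39* (355 to 376 TPM) in every liver. First place was not settled on HSD either. *Slc25a5* was above *Slc25a47* in HSD 3 (420 against 417 TPM) and HSD 4 (450 against 365 TPM). In HSD 4 *Slc25a39*, at 369 TPM, was also above *Slc25a47*. Near-identical copies limit this order, since 49.4% of the 31-base sequences of *Slc25a5* transcripts also occur in other genes, mostly pseudogenes such as *Gm5560*. Among the liver carriers of amino acids, the glutamate carrier *Slc25a22* was at 183 ± 43.8 TPM on chow, the ornithine carrier *Slc25a15* at 118.3 ± 22.4 TPM and the aspartate/glutamate carrier *Slc25a13* at 84.3 ± 19.2 TPM. *Slc25a20* stood in place 12 of 46, at 60.7 ± 5.93 TPM on chow and 61.5 ± 11.9 TPM on HSD.

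**Figure D1:**
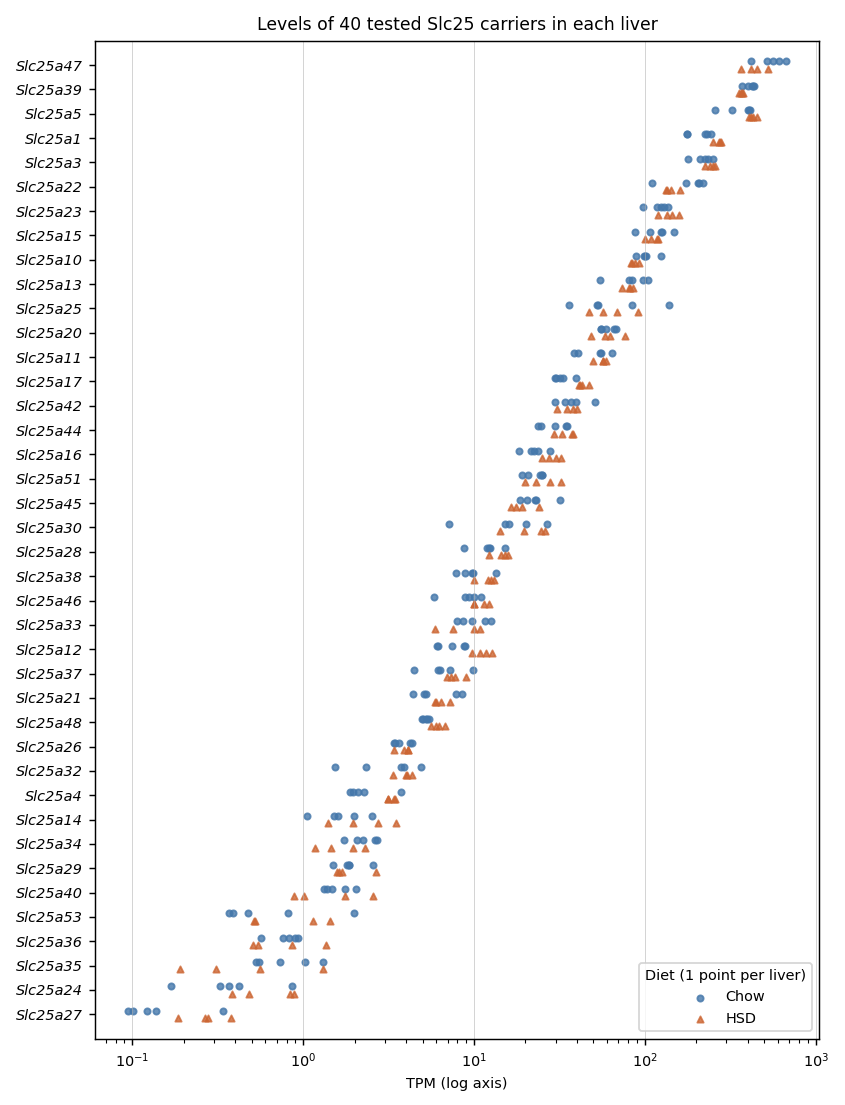
Level of 40 tested carriers in each liver, with TPM on a log axis and carriers ordered by their mean over 9 livers. Blue circles are the 5 chow livers and orange triangles the 4 HSD livers. Mean levels run from 0.211 TPM for *Slc25a27* to 504 TPM for *Slc25a47*, and the diets overlap for most of them.

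The 5 members that were not tested had few or no counts in any liver. *Slc25a41*, an ATP-Mg/phosphate carrier, was at 0 in every liver. *Slc25a18*, the second glutamate carrier, had 0 to 2 counts, *Slc25a31*, an ADP/ATP carrier known from testis, 0 to 5, *Slc25a43* 0 to 4 and the second ornithine carrier *Slc25a2* 0 to 6. At these depths a difference between the diets was not detectable for them.

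Few carriers differed between the diets. Of the 41 tested, 0 were higher on HSD, 2 were lower (*Slc25a10* and *Slc25a47*) and 39 did not pass edgeR's quasi-likelihood test at an adjusted p under 0.05. Of all genes tested, 3.44% were higher and 3.23% lower, or 6.67% in either direction. At an unadjusted p under 0.05 there were 7 members, 2 higher and 5 lower (17.1% of 41), against 23.7% of all genes, and DESeq2 called 1 higher and 3 lower against 5.33% and 5.67% of all genes. Counted in either direction, the share of members called was near that of all genes. Their log2 fold changes (HSD over chow) had a median of -0.06, against -0.00 over all genes tested, and ranged from -0.56 for *Slc25a34* to 0.78 for *Slc25a24*, both of low level. A change under 0.5 in size on the log2 scale was measured for 37 of the 41 (90.2%), against 85.8% of all genes. In CPM, every HSD liver lay below every chow liver for *Slc25a10* and *Slc25a39* (5.51% of all genes) and above every chow liver for *Slc25a17* (5.84% of all genes).

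**Figure D2:**
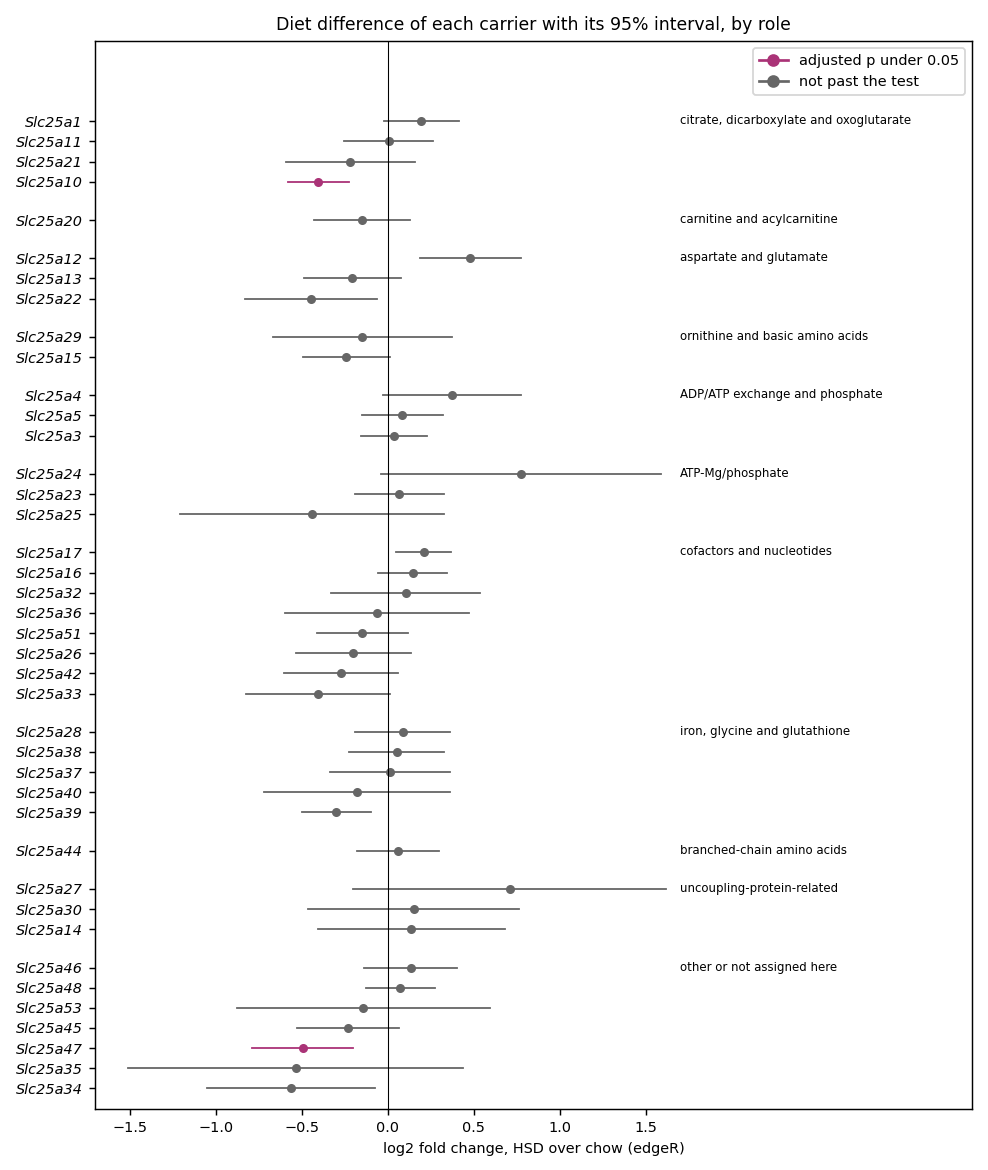
log2 fold change of 40 tested carriers (edgeR, HSD over chow) with the 95% interval, grouped by what each carries. *Slc25a10* (-0.40) and *Slc25a47* (-0.49), in magenta, passed at an adjusted p under 0.05, and the grey carriers did not.

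Among the carriers of citric acid cycle intermediates, *Slc25a10* was lower on HSD and the other 3 did not pass. *Slc25a10* exports dicarboxylates such as malate and succinate in exchange for phosphate. Its level was 154, 148, 155, 172 and 153 CPM in the chow livers 1 to 5 and 112, 124, 123 and 114 CPM in the HSD livers 1 to 4. All HSD livers were thus lower than all chow livers, with the lowest chow liver at 148 and the highest HSD liver at 124 CPM. In TPM the groups overlapped, at 88.7 to 124.9 on chow and 83.4 to 91.8 on HSD. Its log2 fold change was -0.40 (standard error, SE, 0.08, 95% interval -0.58 to -0.23), at an adjusted p of 0.0142 in edgeR. Within the first and second series of library labels the log2 difference was -0.41 and -0.37. On log2(TPM + 1) the difference was -0.23 (adjusted p = 0.185, limma), and with TPM rescaled by TMM it was -0.38 (adjusted p = 0.0255, limma). The call was lost without HSD 1 (adjusted p = 0.0604) and without HSD 4 (adjusted p = 0.0606, edgeR). The exons of *Slc25a10* overlap *Gm11788* on the opposite strand by 228 bases, and the sources used here do not say whether the libraries keep the strand, so these reads cannot be told apart.

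*Slc25a1* exports citrate, from which the cytosol makes acetyl-CoA for fatty acid synthesis. Its level was 241, 272, 205, 241 and 270 CPM on chow and 269, 304, 275 and 278 CPM on HSD. The lowest HSD liver, at 269 CPM, was below chow 2 and chow 5, so the groups overlapped. This gave a log2 fold change of 0.20 (SE 0.10, 95% interval -0.02 to 0.42, adjusted p = 0.263 from edgeR). The difference was 0.26 in the first series of library labels and 0.03 in the second. In TPM, every HSD liver (250 to 280) was above every chow liver (176 to 242), but TPM lay higher on HSD for genes at large. The median gene had a log2 ratio of 0.15 between the TPM means, and in 10.6% of genes tested the HSD livers all lay above the chow livers in TPM, against 1.6% below. Against that shift, the log2 ratio of 0.35 for *Slc25a1* exceeded the median gene by about the 0.20 of the fit on counts. The oxoglutarate/malate carrier *Slc25a11* (0.01, interval -0.25 to 0.27) and the oxodicarboxylate carrier *Slc25a21* (-0.22, interval -0.59 to 0.16) did not pass.

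*Slc25a20* brings acylcarnitines into the matrix, the step between the carnitine palmitoyltransferases *Cpt1a* and *Cpt2* in fatty acid oxidation. The livers had 85.2, 74.2, 91.6, 82.4 and 78.1 CPM on chow and 73.9, 94.3, 57.5 and 70.9 CPM on HSD. The HSD livers held both the highest and the lowest value of all 9, HSD 2 and HSD 3. This gave a log2 fold change of -0.15 (SE 0.13, 95% interval -0.43 to 0.13, adjusted p = 0.520 from edgeR), with 0.01 and -0.29 within the first and second label series. Without HSD 3 it was -0.05 and without HSD 2 it was -0.29, so these livers set its size. On log2(TPM + 1) its difference had the opposite sign, at 0.0037, where the median gene was at 0.14. With TPM rescaled by TMM it was -0.14, near the value on counts.

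The carriers of aspartate and glutamate did not pass, and they lay on either side of 0. *Slc25a12* and *Slc25a13* both exchange aspartate for glutamate in the malate-aspartate shuttle, and *Slc25a13* is the usual liver form. *Slc25a12* was at 15.8, 13.0, 14.3, 12.9 and 11.4 CPM on chow and 19.7, 14.04, 19.8 and 21.7 CPM on HSD. With HSD 2 within the range of the chow livers, its log2 fold change was 0.48 (SE 0.14, 95% interval 0.19 to 0.78, adjusted p = 0.0549 from edgeR). The difference passed with DESeq2 (adjusted p = 0.0230), without HSD 2 (0.0205, edgeR) and without chow 1 (0.0329, edgeR). It also passed with library totals and on log2 TPM at a mean TPM of at least 1, where more of all calls were higher on HSD. In TPM every HSD liver (9.71 to 12.8) lay above every chow liver (6.09 to 8.91), as in 10.6% of genes tested. Within the first and second label series the log2 difference of *Slc25a12* was 0.25 and 0.86.

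*Slc25a13* was at 142, 194, 194, 220 and 225 CPM on chow and 166, 186, 150 and 174 CPM on HSD. The groups overlapped because of chow 1, the liver with high *Saa2*, and the log2 fold change was -0.21 (SE 0.13, adjusted p = 0.367 from edgeR). The ratio of *Slc25a13* to *Slc25a12* in TPM, as log2, was 3.47 ± 0.563 on chow and 2.83 ± 0.251 on HSD, a difference of -0.64 (exact permutation test over the livers, p = 0.0952, adjusted p = 0.254 over 8 pairs). *Slc25a22*, a glutamate carrier, was at 175, 347, 291, 285 and 357 CPM on chow and 205, 246, 201 and 204 CPM on HSD. Again chow 1 was the only chow liver within the HSD range or below it. Over all livers the log2 fold change was -0.45 (SE 0.18, adjusted p = 0.150 from edgeR). Without chow 1 it was -0.59, with an adjusted p of 0.00658 (edgeR), and the part of the acute phase state of chow 1 in this was not tested. Within the label series the difference was -0.25 and -0.82.

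**Figure D3:**
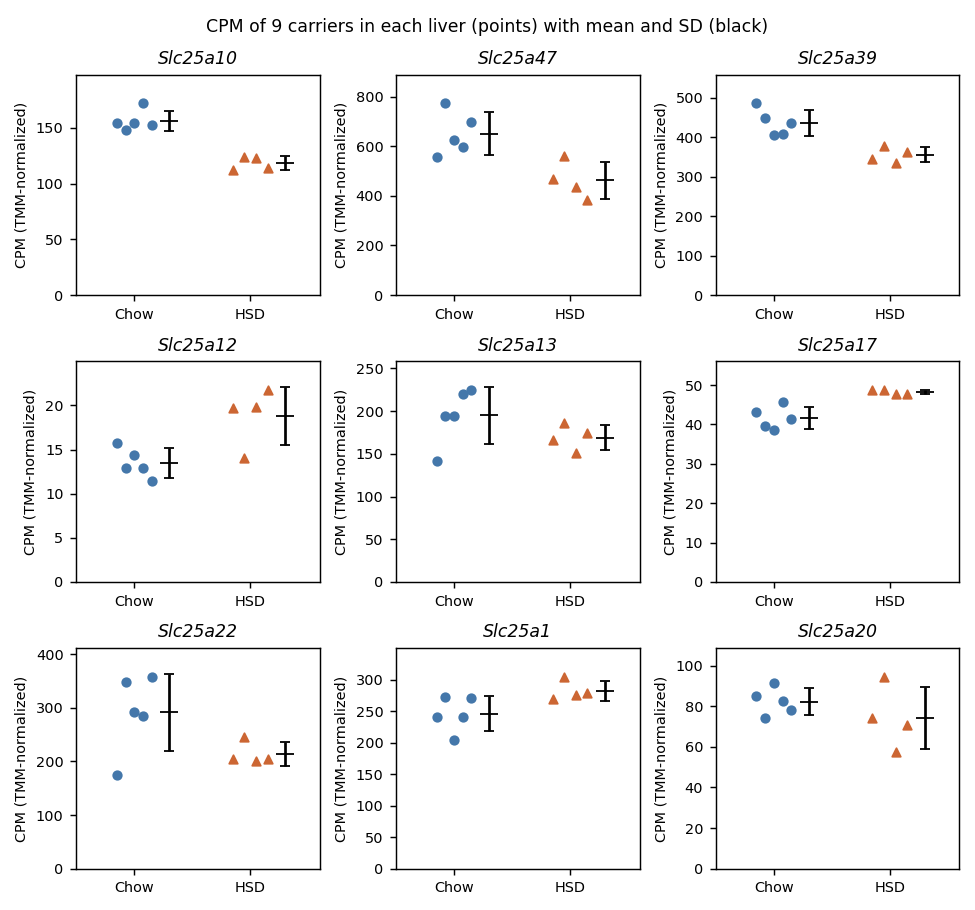
TMM-normalized CPM of 9 carriers in each liver (axes start at 0), with blue circles for chow, orange triangles for HSD and black marks for the mean and SD. The diets do not overlap for *Slc25a10*, *Slc25a39* and *Slc25a17*, and chow 1 is the low chow point of *Slc25a22* and *Slc25a13*.

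*Slc25a15*, the ornithine carrier of the urea cycle, averaged 329 ± 48.3 CPM on chow and 279 ± 20.7 CPM on HSD, with a log2 fold change of -0.24 (interval -0.49 to 0.01, adjusted p = 0.232 from edgeR). *Slc25a29*, which carries basic amino acids, had one of -0.15 with a wide interval (-0.67 to 0.38). Of these carriers 0 passed by edgeR or DESeq2, with 0 at an unadjusted p under 0.05.

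The carriers that serve ATP synthesis exchange ADP for ATP or bring in phosphate, and 0 of 3 passed by edgeR or DESeq2, with 0 at an unadjusted p under 0.05. *Slc25a5* was at 254.8, 355, 290, 316 and 347 CPM on chow and 327, 326, 323 and 351 CPM on HSD. The levels of *Slc25a3* were 207.7, 232, 209, 229 and 248.9 CPM on chow and 222, 243, 218 and 242 CPM on HSD. For both, the HSD livers lay within or close to the range of the chow livers. The log2 fold change was 0.09 for *Slc25a5* (interval -0.15 to 0.32) and 0.04 for *Slc25a3* (interval -0.16 to 0.23, adjusted p = 0.676 and 0.846 from edgeR). *Slc25a4*, the ADP/ATP carrier of heart and muscle, averaged 3.20 ± 0.642 and 4.18 ± 0.426 CPM, with a log2 fold change of 0.37 (adjusted p = 0.240 from edgeR). Of the 15 ATP synthase subunits listed, 0 passed by edgeR or DESeq2 and 1 had an unadjusted p under 0.05, at a median log2 fold change of -0.07.

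The carriers of ATP-Mg and phosphate adjust the adenine nucleotide pool of the matrix. *Slc25a23*, the most abundant of them, had a log2 fold change of 0.07 (interval -0.19 to 0.33). *Slc25a25* was the member with the widest spread on chow, from 74.7 CPM in chow 4 to 311 CPM in chow 2, a ratio of 4.16. With such a spread its log2 fold change of -0.44 had an interval from -1.20 to 0.33, and it was -0.09 without chow 2 and -0.66 without HSD 4. *Slc25a24* had the highest fold change of the family, 0.78 (interval -0.04 to 1.59, adjusted p = 0.231 from edgeR), on 8 to 46 counts per liver.

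Of 9 carriers of cofactors and nucleotides, 0 passed by edgeR or DESeq2 and 1 had an unadjusted p under 0.05. *Slc25a17*, which carries coenzyme A and related cofactors into peroxisomes, was at 43.1, 39.6, 38.6, 45.7 and 41.5 CPM on chow and 48.7, 48.7, 47.6 and 47.7 CPM on HSD. The HSD livers were tightly grouped and lay above every chow liver, at a log2 fold change of 0.21 (SE 0.07, 95% interval 0.05 to 0.37, adjusted p = 0.115 from edgeR). The coenzyme A carriers of mitochondria *Slc25a16* and *Slc25a42* had 0.15 and -0.27. For the log2 ratio of *Slc25a42* to *Slc25a16* in TPM the difference between the diets was -0.41 (exact permutation p = 0.0635, adjusted p = 0.254 over 8 pairs). The carriers of S-adenosylmethionine (*Slc25a26*, -0.20), folate (*Slc25a32*, 0.10) and NAD (*Slc25a51*, -0.15), and the pyrimidine nucleotide carriers *Slc25a33* (-0.40) and *Slc25a36* (-0.06), had intervals that included 0.

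In CPM, *Slc25a39* was lower in every HSD liver than in any chow liver, but its difference did not pass. It stood at 486, 449, 404, 409 and 437 CPM on chow and 346, 378, 335 and 363 CPM on HSD. In TPM the groups overlapped, at 372 to 435 on chow and 355 to 376 on HSD. Its log2 fold change was -0.30 (SE 0.09, 95% interval -0.50 to -0.10, adjusted p = 0.0779 from edgeR), and -0.27 and -0.32 within the label series. DESeq2 called it lower (adjusted p = 0.00657). Its relative *Slc25a40* had -0.18 (interval -0.72 to 0.36), on 36 to 80 counts per liver. The iron importers *Slc25a28* (0.09) and *Slc25a37* (0.01) and the glycine carrier of heme synthesis *Slc25a38* (0.05) were close to 0. Of 9 genes of heme and iron-sulfur synthesis, *Alas2* was lower by edgeR and DESeq2, at -1.14 on the log2 scale (adjusted p = 0.00016 from edgeR). In this list 2 genes had an unadjusted p under 0.05 (edgeR), and the median log2 fold change was 0.03. *Alas2* is the red cell form of the first enzyme of heme synthesis and is itself a red blood cell marker, and the part of red blood cells in it was not tested.

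*Slc25a47* was lower on HSD, at an adjusted p just under the threshold. Its livers had 555, 773, 625, 599 and 699 CPM on chow and 469, 562, 434 and 383 CPM on HSD. Chow 1 (555) lay below HSD 2 (562), so the groups overlapped by this pair of livers alone. Its log2 fold change was -0.49 (SE 0.13, 95% interval -0.79 to -0.20), at an adjusted p of 0.0494 in edgeR, and it was -0.30 and -0.78 within the first and second label series. Leaving out each liver in turn gave adjusted p values of 0.0238 to 0.157 (edgeR), and the call was kept only without chow 1 or HSD 2. None of its 31-base sequences occurs in another gene. Its neighbour *Slc25a29*, read in the other direction, had -0.15 as given above.

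The remaining members did not pass. The uncoupling-protein-related carriers *Slc25a14* (0.14), *Slc25a30* (0.15) and *Slc25a27* (0.71, on 3.86 to 19.8 counts per liver) had wide intervals, and *Slc25a30* varied by 3.19 times among the chow livers. The branched-chain amino acid carrier *Slc25a44* had 0.06 (interval -0.18 to 0.30). *Slc25a46*, a member of the outer membrane that takes part in mitochondrial shape, had 0.13 and *Slc25a48* had 0.07. *Slc25a45* had -0.23, *Slc25a53* -0.14, *Slc25a35* -0.53 (on 6 to 28 counts per liver) and *Slc25a34* -0.56 (interval -1.05 to -0.07, adjusted p = 0.154 from edgeR). The exons of *Slc25a35* share 27.5% of their 31-base sequences with other genes, nearly all with *Rangrf* on the opposite strand.

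Pairs of carriers with the same or a near substrate were compared by the balance between them. Of 8 pairs tested by the log2 ratio of their TPM, 0 passed after adjustment and 1 had an unadjusted p under 0.05 (exact permutation test, two-sided). The smallest p such a test can give with 5 against 4 livers is 0.0159, so a single pair could not pass after adjustment over 8. *Slc25a15* to *Slc25a2* reached it (difference -1.07, adjusted p = 0.127), but with 0 to 6 counts of *Slc25a2* per liver. For *Slc25a5* to *Slc25a4* the difference was -0.23 (p = 0.317, exact permutation test). The pair *Slc25a22* and *Slc25a18* was not tested, as *Slc25a18* was at 0 in 7 livers.

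Among the enzymes on either side of the carriers, 6 genes of the lists rose on HSD and 4 were lower by edgeR. Of all genes tested, 3.44% were higher and 3.23% lower. The number of genes in each list is given where that list is described, and the lists were chosen with earlier results of these data known. Of 6 genes of citrate formation and its cytosolic use, 4 rose by edgeR, and DESeq2 called 5 higher and 1 lower. *Mdh1* went the other way, at -0.30 (SE 0.11, adjusted p = 0.131 from edgeR). Citrate synthase *Cs* had a log2 fold change of 0.77 (SE 0.09), malic enzyme *Me1* 1.83 (0.29), acetyl-CoA carboxylase *Acaca* 1.94 (0.26) and fatty acid synthase *Fasn* 1.65 (0.29), with adjusted p of 0.00105, 0.00523, 0.00199 and 0.0074 (edgeR). ATP citrate lyase *Acly*, which splits the citrate that *Slc25a1* exports, had 1.27 (SE 0.38, adjusted p = 0.0688 from edgeR). It passed by DESeq2 (adjusted p = 0.0371), with the clock covariate (0.0117, edgeR) and without HSD 2 (0.0451, edgeR), and the interval of *Acly* (0.44 to 2.11) lay above that of *Slc25a1* (-0.02 to 0.42). The difference between these genes was not tested. *Me1* and *Acaca* share 36.9% and 33.5% of their 31-base sequences with other genes. *Cs*, *Me1*, *Acaca* and *Fasn* had every HSD liver above every chow liver in CPM, as had 5.84% of all genes tested. They were picked by the test on these same counts, so this is not separate evidence. *Arntl*, given above by liver, was as high in chow 1 and chow 3 as in HSD livers, and these livers were also the lowest of all for *Cs*, *Acly*, *Me1*, *Acaca* and *Fasn*. *Fasn* was at 456 and 370 CPM in them and at 685 to 905 CPM in the remaining chow livers. For *Acaca* the values were 115 and 109 against 180 to 223 CPM, for *Me1* 108 and 167 against 206 to 363 CPM and for *Acly* 195 and 241 against 583 to 707 CPM. The part of the clock or of the acute phase in this was not tested. Without chow 1 and without chow 3 the log2 fold changes were 1.54 and 1.504 for *Fasn*, 1.82 and 1.82 for *Acaca*, 1.64 and 1.73 for *Me1* and 0.72 and 0.76 for *Cs*, and all 4 kept their calls (edgeR).

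Along the carnitine route, *Cpt1a* (0.08, interval -0.21 to 0.37) and *Cpt2* (-0.30, interval -0.61 to 0.02) did not pass, like *Slc25a20* between them. Carnitine acetyltransferase *Crat* rose by 1.20 on the log2 scale (SE 0.29, adjusted p = 0.0292 from edgeR), and it was the only one of 10 genes of this list to pass. Its level in HSD 3, 31.9 CPM, was within the chow range of 22.6 to 46.2 CPM, and HSD 3 was also lowest for *Slc25a20*. In the redox shuttles 1 of 6 genes rose, the mitochondrial glycerol-3-phosphate dehydrogenase *Gpd2* (0.98, SE 0.15, adjusted p = 0.00455 from edgeR). It works without a carrier, from the outer face of the inner membrane. In this list DESeq2 called 1 gene higher and 1 lower, and 2 had an unadjusted p under 0.05 (edgeR).

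Of 6 urea cycle genes 2 were lower by edgeR and 3 by DESeq2, with 3 at an unadjusted p under 0.05 (edgeR). *Otc*, which uses the ornithine brought in by *Slc25a15*, had -0.48 (SE 0.11, adjusted p = 0.0197) and *Asl* -0.80 (SE 0.19, adjusted p = 0.0290 from edgeR). Both calls were lost whichever HSD liver was left out, with adjusted p of up to 0.0642 and 0.0912 (edgeR) over all livers left out. The call of *Asl* was also lost without chow 4 or chow 5, and that of *Crat* without 6 of the 9 livers (adjusted p of up to 0.0894, edgeR). *Bcat2*, the first step of branched-chain amino acid breakdown, was lower by the test (-0.84, SE 0.13, adjusted p = 0.00502 from edgeR), the only one of 6 genes of that list by edgeR. DESeq2 called 2 of the 6 lower, and 2 had an unadjusted p under 0.05 (edgeR). The carrier of the substrates of *Bcat2*, *Slc25a44*, is given above.

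**Figure D4:**
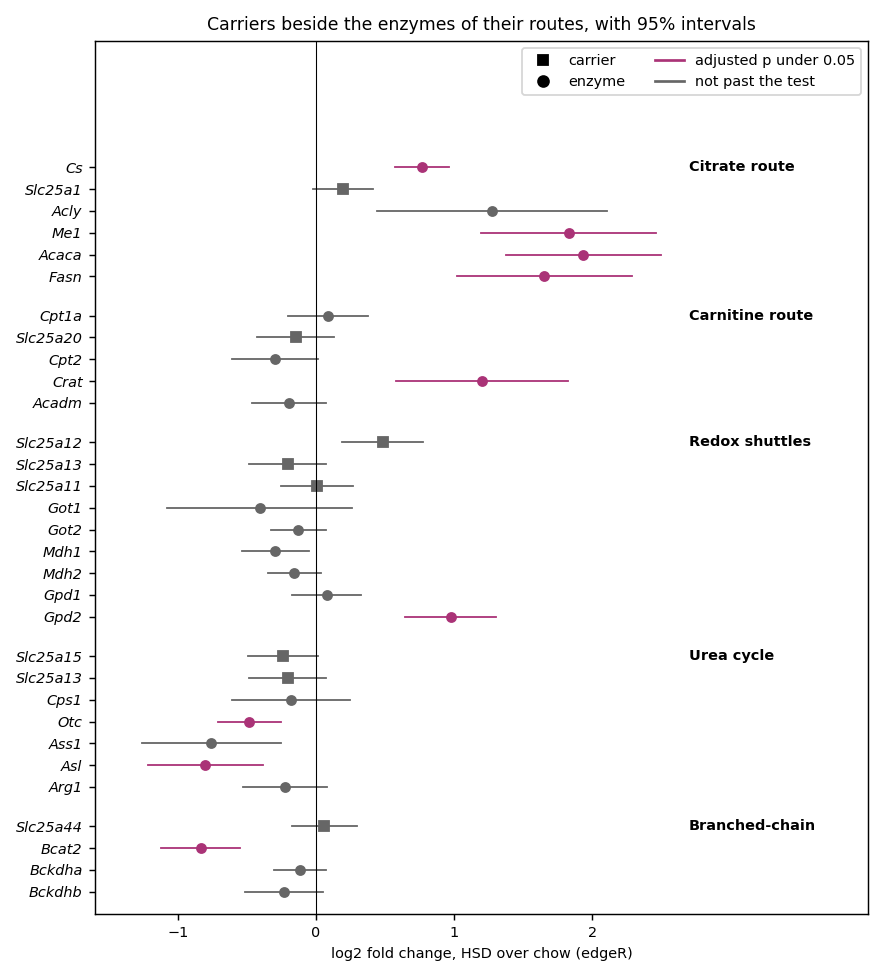
log2 fold changes (edgeR, HSD over chow, 95% intervals) of carriers (squares) and enzymes (circles) on 5 metabolic routes. *Cs*, *Me1*, *Acaca* and *Fasn* lie to the right of 0 while *Slc25a1* is near 0.20, and magenta marks an adjusted p under 0.05.

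The import of carriers into the inner membrane needs its own proteins, and of 11 such genes 0 passed by edgeR or DESeq2 (median log2 fold change 0.02, with 2 at an unadjusted p under 0.05). Of 13 genes taken as a measure of mitochondrial content, 0 passed by edgeR and 1 was lower by DESeq2 (median 0.04, with 2 at an unadjusted p under 0.05). The mitochondrial pyruvate carriers *Mpc1* and *Mpc2*, from another family, and pyruvate carboxylase gave 0 of 3 by edgeR and 1 higher by DESeq2, with 1 at an unadjusted p under 0.05. Of 5 further genes of the carrier family with other names, 3 were tested and 0 passed by edgeR, with 2 at an unadjusted p under 0.05 and 1 higher by DESeq2. Their log2 fold changes were -0.19 for *Ucp2*, -0.27 for *Mtch1* and 0.27 for *Mtch2*. *Ucp1* and *Ucp3* had a count in chow 5 only.

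The carriers differed in how much they varied among livers of a diet. On chow the ratio of the highest to the lowest liver was 1.16 for *Slc25a10* and *Slc25a48*, the steadiest, and over 3 for *Slc25a25*, *Slc25a30*, *Slc25a35* and *Slc25a53*. *Slc25a35* and *Slc25a53* had few counts, 6 to 28 and 8 to 42 per liver, and the part of low counts in their ratios was not tested. Of 41 members, 13 had their lowest chow value in chow 1 (31.7%, against 26.5% of all genes tested). HSD 3 was the lowest HSD liver for 18 members (43.9%, against 27.0% of all genes) and HSD 2 the highest for 15 (36.6%, against 25.4%). HSD 3 also had the fewest counts of the HSD libraries, 14040723, and the part of depth in this was not tested.

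**Figure D5:**
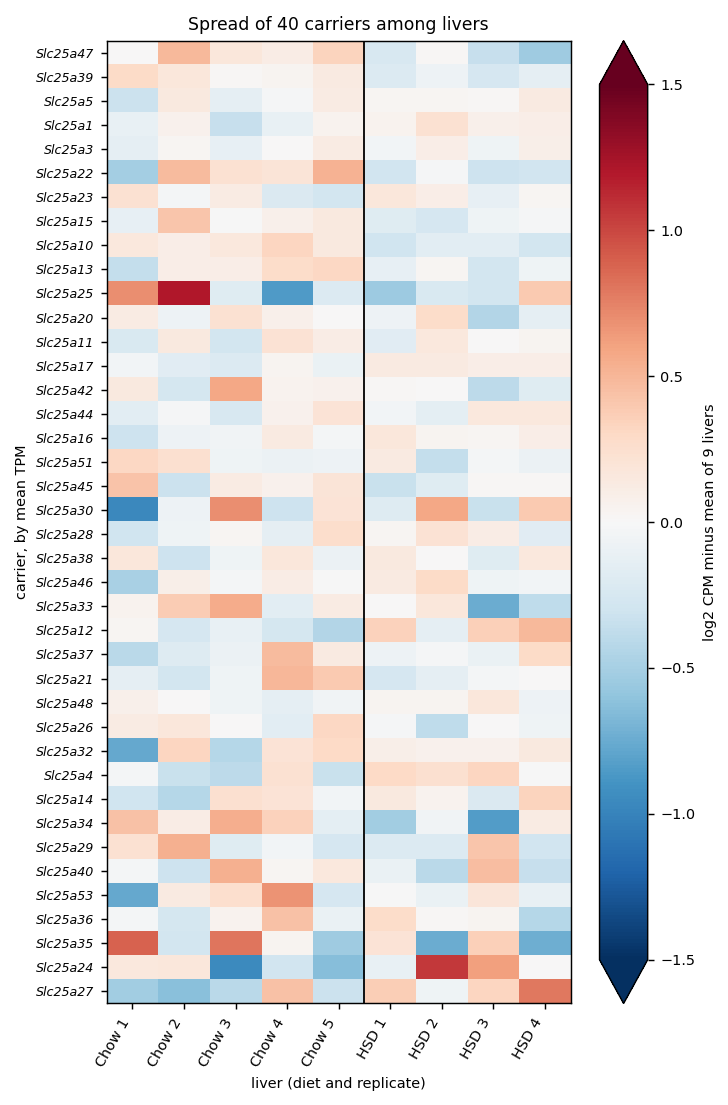
log2 CPM of 40 tested carriers, each minus its mean over 9 livers (color scale from -1.5 to 1.5), with carriers from high to low mean TPM and livers by diet. The deepest colors are in single livers, such as *Slc25a25* in chow 2 and *Slc25a30* in chow 1, rather than across a diet.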

How the data were processed

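Liver mRNA of 9 mice was sequenced by the authors from poly-A libraries as pairs of 51-base reads and quantified with kallisto on GRCm38, as the submitters' processing notes name them, with no version. The authors deposited estimated counts per gene symbol, not scaled, and TPM values scaled by the authors within each library. Of the count values above 0, 34.1% were whole within 1e-06, and 99.1% of those were even, so counts were also halved as an alternative. The sources used here do not give how transcripts were summed to genes.

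Counts were rounded, kept where filterByExpr passed them (minimum count 10, total 15), TMM-scaled and compared by edgeR 4.0.16 under R 4.3.3 (quasi-likelihood, diet as the single factor, 7 residual degrees of freedom). P values were adjusted by Benjamini-Hochberg over 12091 genes. The code was tested on simulated counts. The standard error is the fold change over the square root of F. The family and the partner and marker lists were chosen with earlier results of these data known. Named in every liver are *Slc25a1*, *Slc25a20*, members past the test and the 5 with the highest mean TPM. *Slc25a12*, *Slc25a13*, *Slc25a17*, *Slc25a22* and genes describing single livers were added after their values were seen. From partner lists up to 4 genes past the test were named, with *Acly*, *Cpt1a* and *Cpt2*. *Mdh1* was added after its value was seen, as the gene of the citrate list that went the other way. Log2 ratios used a TPM pseudocount of 0.1. Alternatives were DESeq2 1.42.0, limma 3.58.1 (voom, and log2 TPM with a pseudocount of 0.1 or 1), other scaling, filters and thresholds, covariates for label series and clock, the replicate number as a block, and each liver left out. No column of another sample was present (0 columns). Samples were grouped by their labels. The sources used here do not say that replicate numbers pair the mice. 1 tested member is counted in the totals and not reported here by itself.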

Additional observations from a re-analysis of the deposited data

Results flagged for a closer look

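In 3 of 48 groups examined (6.25%) 1 liver stood apart from the others of its diet, by a gap to its nearest neighbour that filled most of the range of the diet. Chance gives this in about 1 in 20 groups. *Slc25a10* was at 7.43 log2 CPM in chow 4, against 7.21 to 7.27 in the other chow livers, on the side away from HSD. *Slc25a22* was at 7.95 log2 CPM (7.945) in HSD 2, against 7.65 to 7.68 in the other HSD livers. The log2 ratio of *Slc25a28* to *Slc25a37* in TPM, the balance of the iron importers, was 0.32 in chow 4 and 0.90 to 1.05 in the other chow livers.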

How the results depend on the processing

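The count of members higher on HSD, 0, became 1 with DESeq2, 1 with library totals, 2 with log2(TPM + 1) and 1 with log2(TPM + 0.1) at a mean TPM of at least 1, and 0 to 1 with each liver left out. The count of members lower, 2, became 0 at an adjusted p under 0.01, 1 with RLE size factors, 1 with library totals, 1 with no filter, 0 with each of the 3 fits on log2 TPM, 1 with the label series as covariate, 1 with the clock covariate and 0 to 3 with each liver left out (0 without HSD 1 or HSD 4, 3 without chow 1). With TPM rescaled by TMM factors, chosen after seeing the data, it was 1. With the replicate number as a block it was 0, and 220 genes were higher and 205 lower in all, against 416 and 391. Deviations of same-numbered livers correlated at 0.0457, 0.0661, -0.0609 and 0.0447. Such values cannot show whether the numbers pair the mice, and the sources used here name no pairing. Partner genes lower, 4, became 7 with DESeq2 and 2 to 7 with each liver left out (2 whichever HSD liver was left out, 7 without chow 1). Partner genes higher, 6, became 9 with DESeq2 and 5 to 6 with each liver left out.

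*Slc25a20* changed sign on TPM, to 0.0037, 0.00355 and 0.0037 (-0.14 with TPM rescaled by TMM), and *Cpt1a* without HSD 2, to -0.030, within a range of -0.030 to 0.147 with each liver left out. *Slc25a47* lost its call under 17 alternatives and *Slc25a10* under 6, besides the threshold of 0.01, at which both lost it. Library totals made 69.1% of all calls higher and log2 TPM 81.6% to 82.7%, against 51.5%, and all-gene counts ran from 153 to 475 higher and 149 to 493 lower with each liver left out. The balance of pairs was recomputed under 11 alternatives, in which a pair could hardly pass, so it says nothing about stability. *Slc25a24* and *Slc25a35*, on few counts, had wide intervals, as did *Slc25a25* on many, and the part of depth was not tested.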
